A study of Mus musculus with 6 samples.

Results

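The genes described here are the 10 listed Sox genes that lie outside the pathway of Sertoli cell formation, and they were chosen by name from 55536 annotated genes. They are Sox1, Sox2, Sox14 and Sox21 of Sox group B, Sox4 and Sox11 of group C, Sox10 of group E, and Sox7, Sox17 and Sox18 of group F. Each was followed from 5 kb upstream of its most upstream transcription start site (TSS) to the end of the gene in the mm10 mouse genome. No measured value entered the choice of window, but the genes were chosen with earlier results of these data known. At least 1 H3K27me3 peak was listed in the window of 7 of the 10 genes, and 4 of them (Sox2, Sox21, Sox10 and Sox17) had one in all 6 libraries. Sox1, Sox4 and Sox18 had no peak in any library.

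Anti-H3K27me3 CUT&Tag was performed on ovarian granulosa cells (GCs), the somatic cells that surround the oocyte in the follicle, 6 h after the mice received cyclophosphamide (CTX) or phosphate-buffered saline (PBS). CTX is an alkylating chemotherapeutic agent, and PBS was the vehicle control, with 3 libraries in each group. All mice were ICR females of 3 weeks whose follicle growth had been started with 5 IU of the gonadotropin PMSG, 22 h before the CTX or PBS injection, and each library pooled the GCs of 3 mice. CUT&Tag uses an antibody to bring a transposase to the marked chromatin, where it cuts the DNA and inserts sequencing adapters.

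Sox genes encode transcription factors that bind DNA through a high mobility group box, and they decide cell fate in many embryonic lineages. Group B genes act in neural progenitors and neurons, group C genes in progenitors and differentiating neurons, Sox10 in the neural crest and its glial and pigment cell derivatives, and group F genes in endothelium, with Sox17 also in endoderm. H3K27me3 is deposited by Polycomb repressive complex 2 and is typically found over the CpG-rich promoters of such developmental regulators in cells that do not use them.

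The stretch of each window that was called in the most libraries, 100 to 300 bp long and outside any annotated UTR, is shown for the members with a peak in at least 3 libraries. The sequences were read from the RefSeq copy of GRCm38, the assembly that mm10 names, 5′ to 3′ on the strand of the gene, with CpG dinucleotides in capitals. The Sox17 stretch (chr1:4492740-4493039, minus strand) was called in all 6 libraries and is an intron of the coding transcripts and part of an exon of a noncoding transcript. The Sox10 stretch (chr15:79164600-79164899, minus strand) was also called in all 6 libraries. It lies in an intron of the longest Sox10 transcript and just upstream of the starts of the other 3 Sox10 transcripts. The Sox21 stretch (chr14:118237032-118237254, minus strand) adjoins the TSS, and each of its bases was called in at least 5 of the 6 libraries. The Sox2 stretch (chr3:34649329-34649628, plus strand) lies 776 to 1076 bp upstream of the TSS and was called in 5 libraries. The Sox14 stretch (chr9:99878808-99879081, minus strand) was called in 5 libraries. The Sox11 stretch (chr12:27342018-27342287, minus strand), in the coding sequence, was called in 3 libraries. The 236 bp upstream of the TSS of Sox4 (chr13:28953714-28953949, minus strand), from the RefSeq promoter table, are shown as the promoter of a member with no peak.
Sox17: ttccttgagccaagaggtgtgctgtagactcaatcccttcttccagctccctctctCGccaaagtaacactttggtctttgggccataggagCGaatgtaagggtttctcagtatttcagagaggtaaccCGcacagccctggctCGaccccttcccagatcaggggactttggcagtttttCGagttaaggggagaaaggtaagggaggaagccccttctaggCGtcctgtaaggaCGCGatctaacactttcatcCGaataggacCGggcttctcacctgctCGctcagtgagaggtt
Sox10: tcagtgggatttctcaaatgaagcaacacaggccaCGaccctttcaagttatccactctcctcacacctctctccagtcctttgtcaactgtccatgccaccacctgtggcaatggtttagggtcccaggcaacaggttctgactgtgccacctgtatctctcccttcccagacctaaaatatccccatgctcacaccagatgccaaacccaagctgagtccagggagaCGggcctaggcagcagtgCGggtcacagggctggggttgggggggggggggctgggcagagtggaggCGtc
Sox21: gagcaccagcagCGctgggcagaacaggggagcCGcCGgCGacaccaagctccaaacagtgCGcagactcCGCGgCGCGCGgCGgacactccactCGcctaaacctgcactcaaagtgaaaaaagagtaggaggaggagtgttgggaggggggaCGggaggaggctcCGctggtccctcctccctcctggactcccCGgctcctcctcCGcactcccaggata
Sox2: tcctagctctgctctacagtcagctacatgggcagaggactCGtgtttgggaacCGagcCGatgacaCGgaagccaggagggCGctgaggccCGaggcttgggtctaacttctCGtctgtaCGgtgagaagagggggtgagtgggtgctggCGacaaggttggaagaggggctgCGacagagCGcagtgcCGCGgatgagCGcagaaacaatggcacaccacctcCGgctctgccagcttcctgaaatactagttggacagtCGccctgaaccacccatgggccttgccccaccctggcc
Sox14: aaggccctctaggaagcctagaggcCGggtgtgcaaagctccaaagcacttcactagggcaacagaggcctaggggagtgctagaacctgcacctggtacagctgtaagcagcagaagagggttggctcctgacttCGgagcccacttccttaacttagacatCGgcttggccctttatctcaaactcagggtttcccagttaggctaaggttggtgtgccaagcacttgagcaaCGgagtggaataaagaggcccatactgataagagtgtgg
Sox11: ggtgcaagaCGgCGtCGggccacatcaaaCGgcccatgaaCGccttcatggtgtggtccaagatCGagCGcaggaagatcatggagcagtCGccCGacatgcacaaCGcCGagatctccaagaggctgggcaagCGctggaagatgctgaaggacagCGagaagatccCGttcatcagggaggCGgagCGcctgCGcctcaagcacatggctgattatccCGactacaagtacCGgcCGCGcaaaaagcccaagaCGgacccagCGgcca
Sox4: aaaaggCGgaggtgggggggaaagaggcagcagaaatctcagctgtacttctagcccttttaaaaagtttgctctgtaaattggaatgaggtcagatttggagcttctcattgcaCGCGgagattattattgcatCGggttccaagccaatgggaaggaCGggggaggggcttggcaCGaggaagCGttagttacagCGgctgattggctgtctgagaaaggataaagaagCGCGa
The Sox11 stretch held 8.52 CpG per 100 bp, the Sox21 stretch 7.17 and the Sox2 stretch 5.33, against a median of 2.33 over 32851 RefSeq promoters of 300 bp. The stretches of Sox10 and Sox14 held fewer, at 1.33 and 1.46 per 100 bp. The stretches were chosen by their calls and lie in unlike sequence, such as coding sequence at Sox11 and an intron at Sox10. The promoter median is therefore given for scale only. The Sox4 promoter, where no peak was listed, held 4.24 per 100 bp, more than the Sox17 stretch at 3.67.

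The depth recovered from the peak lists ranged from 1118 to 1957 reads per Mb of effective genome, and each list held 2916 to 6378 peaks after touching intervals were merged. CTX replicate 3 was the shallowest library and had the fewest peaks. Peaks were called in each library separately, and the recovered backgrounds were as for a background taken from the library's own surroundings. A gene without a listed peak may thus still carry the mark. Among marker genes of the labelled cell type, 2 of 12 granulosa cell markers (Fshr and Esr2) had a peak, each in 1 library with 200 bp. Markers of other cell types the preparation could hold were counted too. A peak in at least 1 library was found at 2 of 7 endothelial and 2 of 5 theca and stroma markers. The counts were 2 of 4 for immune cells, 1 of 5 for the oocyte and 3 of 3 for the surface epithelium. For scale, 19.4% of the 22028 protein-coding genes had such a peak. Kdr, Ptprc, Adgre1, Ddx4 and Upk3b were called in 1 library each, with 200 to 283 bp. Erg, Pdgfra, Col1a1, Krt19 and Lgr5 were called in more than 1 library. The cell composition of the libraries was not tested.

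To see which Sox genes carried called H3K27me3 in GCs, peaks were counted by library. PBS replicates 1, 2 and 3 had a peak at 7, 5 and 6 of the 10 genes, and CTX replicates 1, 2 and 3 at 5, 7 and 4. On average 6 ± 1 genes were called after PBS and 5.33 ± 1.53 after CTX (SD, n = 3 each), so the groups overlapped. Of all 22028 protein-coding genes, 19.4% had a peak in at least 1 library and 4.57% had one in all 6, against 7 and 4 of the 10 Sox genes. Because the genes were chosen with earlier results of these data known, these shares do not test for an excess. In order of depth, from the shallowest library to the deepest, the libraries had 4, 5, 5, 6, 7 and 7 of the genes called. In that order the groups were mixed, with CTX replicate 3 at the lower end, PBS replicate 1 at the upper end, and CTX replicate 2 between PBS replicates 3 and 1. Over all protein-coding genes the share with a peak was also lowest in CTX replicate 3, at 7.16%, and highest in PBS replicate 1, at 12.3%. The part of depth in these counts was not tested.

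**Figure D1:**
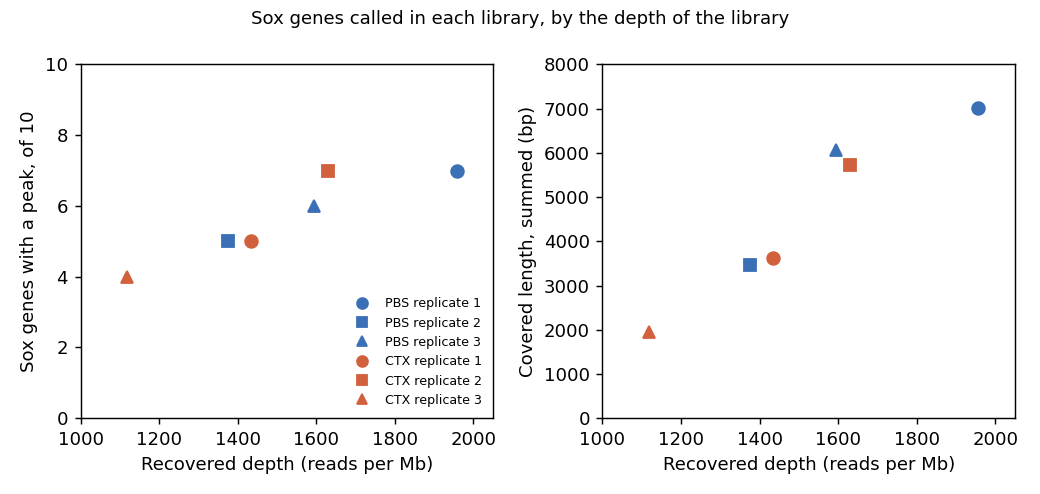
Number of Sox genes with a peak (left) and window length covered by peaks summed over the 10 genes in bp (right), against the depth recovered for each library in reads per Mb; each point is 1 library, blue for PBS and red for CTX. Both values are lowest in CTX replicate 3, at 4 genes and 1960 bp, and the summed length is highest in PBS replicate 1, at 7008 bp.

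The length covered by peaks, summed over the 10 windows, was 7008, 3455 and 6073 bp in the PBS libraries and 3624, 5730 and 1960 bp in the CTX libraries. On average 5512 ± 1842 bp were covered after PBS and 3771 ± 1889 bp after CTX (SD, n = 3 each). The ranges overlapped, with PBS replicate 2 below CTX replicates 1 and 2. By Sox group the covered length per gene was 332 to 623 bp in the PBS libraries and 166 to 597 bp in the CTX libraries for group B. It was 0 to 689 bp and 0 to 196 bp for group C, 363 to 755 bp and 210 to 610 bp for group F, and 872 to 1329 bp and 561 to 1123 bp for group E, of which Sox10 is the only member here. PBS and CTX libraries overlapped in all 4 groups.

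No member had a larger covered length in every PBS library than in every CTX library (0 of 10), and none the reverse (0 of 10). Sox1, Sox4 and Sox18, with no peak, could show neither pattern, so the like count is 0 of the 7 genes with a peak. Among the 6240 genes with a peak in at least 1 library, 13.2% had the first pattern and 0.256% the second. Covered length was tested at the 7 genes with a peak, by two-sided exact permutation tests whose smallest possible p-value with 3 against 3 libraries is 0.1.

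**Figure D2:**
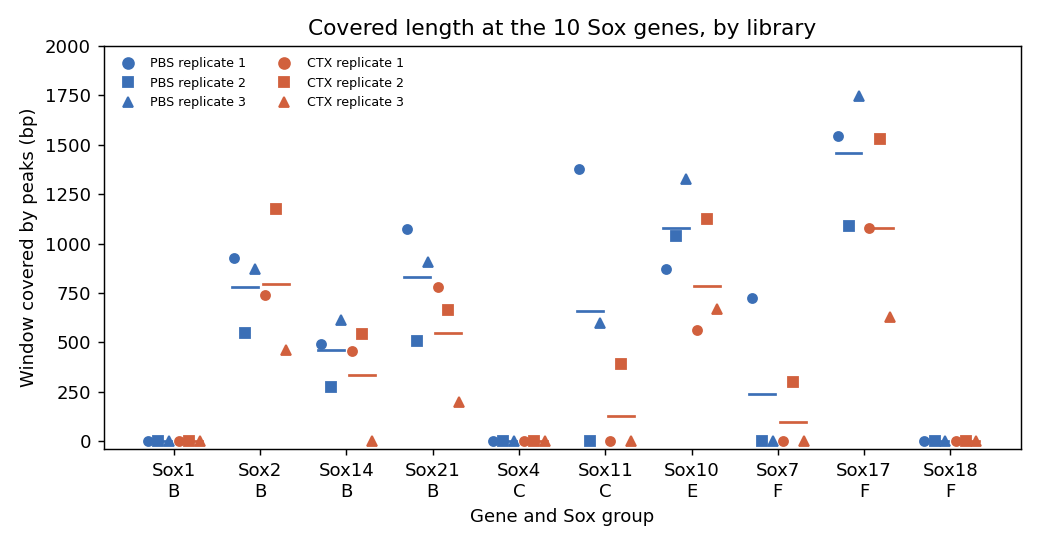
Length of each Sox gene's window covered by peaks (bp, vertical axis) for the 10 genes with their Sox group (horizontal axis). Points are libraries, blue for PBS and red for CTX, and short lines are group means; the groups overlap at all 7 genes with a peak, and Sox1, Sox4 and Sox18 lie at 0 in all 6 libraries.

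Group F held both the most strongly called member and a member with no peak. Sox17, a regulator of endoderm and arterial endothelium, had 1543, 1090 and 1747 bp covered in PBS replicates 1, 2 and 3 and 1081, 1531 and 630 bp in CTX replicates 1, 2 and 3. The means were 1460 ± 336 and 1081 ± 451 bp (SD, n = 3 each; exact permutation p = 0.2), and the groups overlapped. Its strongest −log10 q-value was 22.2, 15.4 and 11.5 in the PBS libraries and 18.1, 13.6 and 3.22 in the CTX libraries. Among the merged peaks of each list this value ranked 161, 155 and 566 in PBS and 112, 275 and 1433 in CTX, so that CTX replicate 3 stood apart from the other 5 libraries. Apart from 1 interval of 200 bp in CTX replicate 1, 481 bp from the TSS, the calls lay further downstream. They lay 3501 to 5248 bp from the most upstream TSS, near the starts of 2 short transcripts. The called bases were mostly coding, UTR and noncoding exon sequence. A run of 487 bp there was called in all 6 libraries, and the stretch printed above leaves out its coding part.

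Sox7, an endothelial factor of the same group, was called in 2 libraries only, with 723 bp in PBS replicate 1 and 298 bp in CTX replicate 2, and the other 4 libraries had none. Both were among the 3 deepest libraries. Their intervals lay upstream of the gene and shared 126 bp. Sox18, which acts with Sox7 and Sox17 in vascular and lymphatic endothelium, had no peak in its window, and the nearest one lay 245688 to 246050 bp away in the 6 libraries. At the endothelial markers the summed covered length was 0 to 759 bp in the PBS libraries and 206 to 534 bp in the CTX libraries and came from Erg and, in PBS replicate 1, also Kdr, while 5 of the 7 markers were at 0 in all 6 libraries. The part of endothelial cells in the group F calls was not tested.

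The only group E gene among the members, Sox10, was called in every library. Its covered length was 872, 1036 and 1329 bp in the PBS libraries and 561, 1123 and 668 bp in the CTX libraries. The means were 1079 ± 232 and 784 ± 298 bp (SD, n = 3 each; exact permutation p = 0.3), with CTX replicate 2 above 2 of the 3 PBS libraries. The calls ran from 62 bp upstream to 1446 bp downstream of the most upstream TSS. They were a single interval in the 3 PBS libraries and CTX replicate 2, and 2 separate intervals in CTX replicates 1 and 3. Of the called bases, 77.4% were intronic and 21.5% were UTR. The strongest −log10 q-value was 16.8, 11.0 and 8.54 in the PBS libraries and 4.68, 9.27 and 5.26 in the CTX libraries, again with an overlap at CTX replicate 2 (exact permutation p = 0.2). These values ranked 288, 336 and 1029 among the peaks of the PBS lists and 1535, 610 and 682 among those of the CTX lists.

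Of the group B genes, Sox2 and Sox21 were called in all 6 libraries and Sox14 in 5. Sox2, which maintains neural progenitors and pluripotent cells, had 928, 546 and 874 bp covered in the PBS libraries and 741, 1177 and 462 bp in the CTX libraries. The largest and the smallest value were both from the CTX group, and the means of 783 ± 207 and 793 ± 360 bp did not differ beyond the spread (SD, n = 3 each; exact permutation p = 1). The intervals formed 2 clusters. The upstream cluster, between 560 and 1169 bp before the TSS, was present in all libraries but CTX replicate 3, and the cluster 385 to 977 bp after the TSS, mostly in the coding sequence, was present in all but PBS replicate 2. The strongest −log10 q-value at Sox2 was 11.0, 6.20 and 5.43 in the PBS libraries and 5.88, 5.21 and 2.47 in the CTX libraries, with CTX replicate 1 above PBS replicate 3 (exact permutation p = 0.2). The Sox2 window lies inside the long noncoding gene Sox2ot, which runs on the same strand, so the calls belong to both annotations.

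Sox21, a group B gene that counteracts the progenitor-maintaining members and promotes neuronal differentiation, had 1073, 509 and 909 bp covered in the PBS libraries. The CTX libraries had 782, 666 and 200 bp. The means were 830 ± 290 and 549 ± 308 bp (SD, n = 3 each; exact permutation p = 0.4), with PBS replicate 2 below CTX replicates 1 and 2. The intervals spanned the TSS, from 293 bp upstream to 807 bp downstream, and only 15 bp were called in all 6 libraries. Its strongest −log10 q-value was 5.72, 5.56 and 10.4 in the PBS libraries and 4.56, 6.14 and 3.03 in the CTX libraries, so that CTX replicate 2 lay above 2 of the PBS libraries (exact permutation p = 0.3). The lincRNA gene Gm4675 overlaps the Sox21 start on the opposite strand.

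Sox14, which acts in the specification of interneurons, was called only 2404 to 3020 bp upstream of its TSS. It had 492, 274 and 616 bp covered in the PBS libraries and 459, 544 and 0 bp in the CTX libraries (exact permutation p = 0.6). CTX replicate 3, the library without the call, was also the shallowest. The strongest −log10 q-value was 7.50, 3.24 and 7.64 in the PBS libraries and 4.02 and 6.19 in CTX replicates 1 and 2. In these 5 libraries the intervals overlapped one another by 274 bp.

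**Figure D3:**
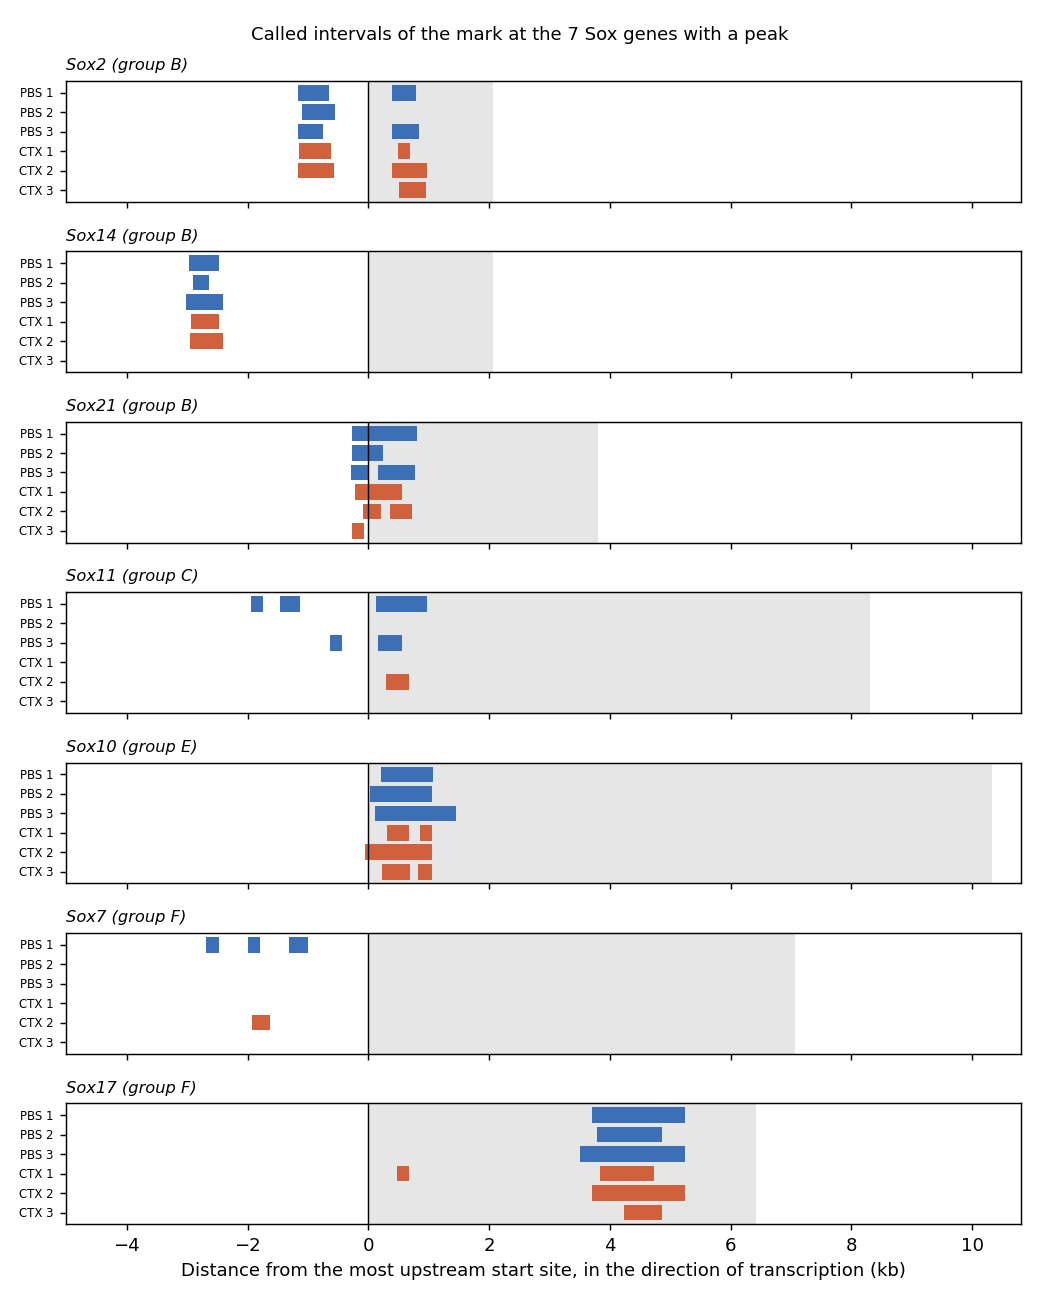
Position of the called H3K27me3 intervals (bars) at the 7 Sox genes with a peak, as distance from the most upstream TSS in kb in the direction of transcription; each line within a panel is 1 library (PBS blue, CTX red), and grey marks the gene body. The Sox17 intervals lie 3501 to 5248 bp into the gene, apart from 1 in CTX replicate 1, those of Sox14 and Sox7 lie wholly upstream, and those of Sox10 and Sox21 lie between 293 bp before the TSS and 1446 bp after it.

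Sox1, the remaining group B gene and a neural progenitor factor, had no peak between 5 kb upstream and the gene end. In the 20 kb on either side of that window, peaks covered 1916, 276 and 1626 bp in PBS replicates 1, 2 and 3 and 0 bp in the 3 CTX libraries. Of 9268 genes with a peak in such flanks in at least 1 library, 11.1% had a larger covered length in every PBS library than in every CTX library. The nearest peak was 6715, 13821 and 6696 bp from the Sox1 TSS in the PBS libraries and 36606, 105232 and 104835 bp in the CTX libraries. The flanks were examined after the values in the window had been seen, and the locus also holds the long noncoding gene Sox1ot.

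The group C genes differed from each other. Sox11, which is expressed in embryonic neurons and progenitors, had 1377, 0 and 598 bp covered in the PBS libraries and 0, 391 and 0 bp in the CTX libraries (exact permutation p = 0.4). It was called in the 3 deepest libraries and in none of the 3 others. The 3 libraries shared 270 bp of coding sequence. Sox4, a widely expressed gene, had no peak in its window, and in 5 of the 6 libraries the nearest peak was more than 1 Mb away, at 1007162 to 1795330 bp. In CTX replicate 2 it was at 31397 bp.

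Since covered length follows the number of peaks that pass the threshold, the height of the calls was compared as well. The pileup, the number of overlapping reads at a summit, was solved from the fold enrichment and p-value and scaled to 1000 reads per Mb. In pooled cells and without a spike-in scale, the possible sources of a lower pileup cannot be told apart, fewer marked cells and less mark per cell among them. At Sox10 the highest scaled pileup was 32.7, 32.7 and 30.7 reads in the PBS libraries and 20.9, 25.8 and 24.1 in the CTX libraries, a log2 difference of -0.45. At Sox2 it was 29.1, 29.1 and 27.0 reads in PBS and 23.0, 21.5 and 19.7 in CTX, a log2 difference of -0.41. At Sox21 it was 28.6, 32.0 and 38.3 reads in PBS and 26.5, 27.0 and 24.1 in CTX, a log2 difference of -0.34.

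Every PBS library lay above every CTX library at these 3 genes (exact permutation p = 0.1 each, the smallest possible with n = 3 each). At Sox17 the values of 47.5, 48.7 and 43.3 reads in PBS and 45.4, 38.0 and 27.7 in CTX overlapped, because CTX replicate 1 lay above PBS replicate 3 (log2 difference -0.36, exact permutation p = 0.2). Of 1004 protein-coding genes with rows in all 6 libraries, 40.6% had a scaled pileup that was higher in every PBS library, and the median log2 difference was -0.29 (interquartile range -0.41 to -0.15). Without scaling to depth the differences had the same sign at all 4 genes, but the separation of the groups changed at Sox21 and Sox17. At Sox21 the unscaled pileup was 44 reads in both PBS replicate 2 and CTX replicate 2 (exact permutation p = 0.2), and at Sox17 it ranged from 67 to 93 reads after PBS and from 31 to 65 reads after CTX, without overlap (exact permutation p = 0.1).

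The surroundings of the summits were denser in reads in the PBS group. The 10-kb read density is the local background solved at a summit, taken here to come from the reads of the library itself. It was expressed as a multiple of the genome-wide floor, and its highest value in each window was used. At Sox17 it was 61.4, 61.4 and 68.5 times the floor in the PBS libraries and 48.8, 49.8 and 47.0 times in the CTX libraries (log2 difference -0.39). At Sox21 it was 62.7, 56.4 and 64.1 times in PBS and 44.8, 43.9 and 38.5 times in CTX (log2 difference -0.53). The 2 genes were in the densest surroundings of the 4, with means above those of 85.0% and 81.9% of the 1004 coding genes.

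At Sox2 the density was 42.3, 43.8 and 46.6 times the floor in the PBS libraries and 31.3, 32.6 and 30.1 times in the CTX libraries (log2 difference -0.50). At Sox10 it was 37.3, 38.1 and 46.0 times in PBS and 29.8, 31.8 and 29.2 times in CTX (log2 difference -0.41). At all 4 genes every PBS library lay above every CTX library, with an exact permutation p of 0.1 for each, which is the smallest possible. Of the 1004 coding genes, 82.9% had this pattern, and the median log2 difference was -0.36 (interquartile range -0.45 to -0.26). The 4 Sox genes therefore shared a difference that most called genes had.

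Where fewer libraries had a row, the densities at the rows that were listed lay in the same order. Only listed peaks give a density, so these values are described and were not tested. Among the 1004 coding genes with rows in all 6 libraries, 82.9% were higher in every PBS library. At Sox14 they were 59.5, 56.4 and 58.8 times the floor in PBS and 47.4 and 47.0 times in CTX replicates 1 and 2. At Sox11 they were 32.6 and 36.4 times in PBS replicates 1 and 3 and 25.3 times in CTX replicate 2, and at Sox7 48.4 times in PBS replicate 1 and 40.7 times in CTX replicate 2. In the flanks of Sox1 the highest density was 72.0, 45.8 and 78.0 times in the PBS libraries, and the CTX libraries had no row there.

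To describe what the called and uncalled genes share in sequence, CpG dinucleotides were counted within 1 kb on either side of each TSS. Sox11 held 216 and Sox2 171, more than 99.6% and 97.1% of the 21916 protein-coding genes counted, whose median was 61. The 3 members with no peak also had CpG-rich starts, with 133 at Sox18, 124 at Sox1 and 119 at Sox4, and Sox21, called in all 6 libraries, had 119 as well. Sox10 and Sox17, the members with the strongest calls, had the fewest, at 54 and 73. Called and uncalled members were not separated by this count. At Sox17 the window counted held only the 200 bp interval of CTX replicate 1, and the other calls lay further into the gene. It held no call of Sox14 or Sox7, which lay 2404 to 3020 bp and 1005 to 2688 bp upstream of the TSS. For these 3 genes the count is thus not that of the called sequence.

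**Figure D4:**
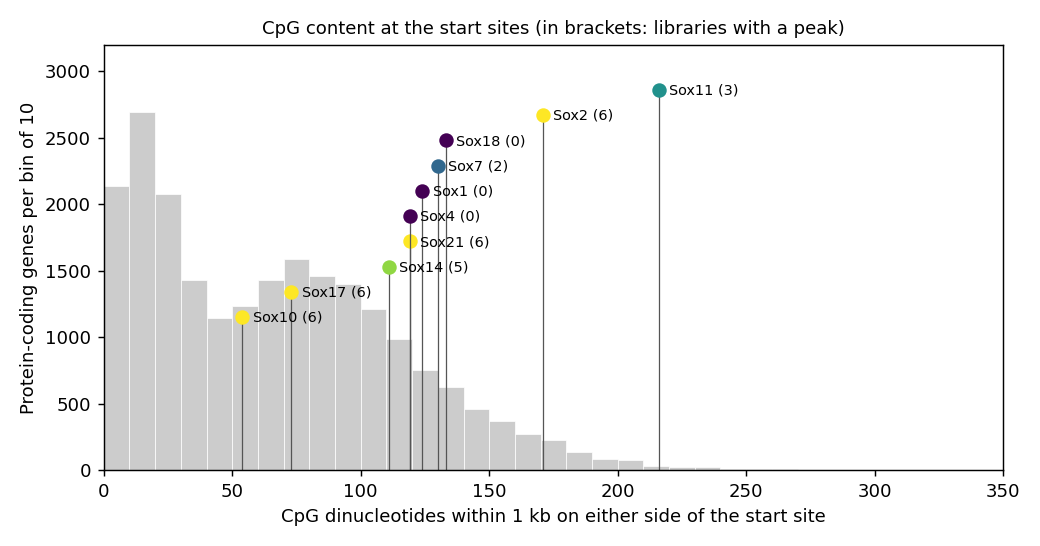
Number of CpG dinucleotides within 1 kb on either side of the TSS (horizontal axis) for 21916 protein-coding genes (grey, genes per bin of 10) and the 10 Sox genes (stems of arbitrary height), coloured and labelled by the number of libraries with a peak. Sox4, Sox1 and Sox18, with no peak, lie at 119, 124 and 133, among the called genes.

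The other Sox genes and 5 POU genes were counted for comparison. Of all protein-coding genes, 19.4% had a peak in at least 1 library and 4.57% had one in all 6. Of the 10 other Sox genes, 4 had a peak in at least 1 library (Sox5, Sox6, Sox9 and Sox13). Sox5, Sox6 and Sox13 are longer than any member, so their windows held more sequence in which a peak could fall. Sox9, which drives Sertoli cell formation in the testis, was the only one called in all 6. It had 789, 818 and 1054 bp covered in the PBS libraries and 498, 575 and 431 bp in the CTX libraries, without overlap between the groups, as at 13.2% of all genes with a peak. Of the 5 POU genes whose proteins bind DNA together with Sox proteins, Pou3f1, Pou3f2, Pou3f3 and Pou3f4 had a peak in at least 1 library, none of them in all 6, and Pou5f1 had none. Sox3, the closest relative of Sox1 and Sox2, also had no peak.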

How the data were processed

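H3K27me3 was profiled by CUT&Tag in GCs of 3 PBS and 3 CTX libraries, grouped by their titles. Per the labels and the study's methods, the authors trimmed reads with fastp, aligned them to mm10 with BWA and called peaks per library with MACS2 2.1.0 at a q-value threshold of 0.05. The deposited lists hold, for each summit, a MACS2 score, a fold enrichment (the ratio of pileup to local background), and the −log10 p-value and −log10 q-value. Use of a control library is not given in the sources used here.

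Overlapping or adjoining intervals within a library were joined and clipped to each window, which began 5 kb upstream of the most upstream TSS (GENCODE M21). A peak counted when it overlapped the window by at least 1 bp. Coordinates are 1-based, and 0 intervals ended beyond a chromosome of the GRCm38.p6 sequence. The RefSeq promoter table held 6 of the 10 genes.

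Pileup and background were solved at 99.98% to 100% of summits per library from the fold enrichment and the Poisson p-value. All backgrounds above the floor (100%) were whole multiples of 0.02 within 0.002, the share of 1 read extended by 200 bp over 10 kb, as for a background taken from the library itself. The genome-wide floor gave the depth. A pileup is limited by counting error, and no spike-in scale was used. The 10-kb read density was added after the values were seen.

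Groups are given as mean ± SD and compared by two-sided exact permutation tests in Python 3.11.15 with scipy 1.17.1. Each library, a pool of mice, was 1 replicate. A p-value is the share of relabellings of the libraries with a difference in means at least as large. Counts of members were set beside the same share of all protein-coding genes or of all genes with a peak. All 10 members were named, together with other Sox genes that had a peak and the 5 POU genes. Members and lists were chosen with earlier results of these data known. Alternatives were other q-value thresholds, windows, joining distances, equal peak numbers, no depth scaling, pairing by replicate number and leaving out each library. The scripts were tested on simulated data.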

Additional observations from a re-analysis of the deposited data

How the results depend on the processing

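Of 75 values of the summary measures under alternatives, 72 stayed within the spread between libraries or, for counts of genes, within 1.5 times. Pairing by replicate number cannot change a difference in means or a count. Its values are among these 72 and among the 154 for single genes below, and they were fixed in advance. The number of Sox genes with a peak per library, CTX minus PBS, moved from -0.667 to -2.67 when only peaks with a q-value of 1e-05 or less were kept. The number of members with more covered bp in every PBS than in every CTX library was 0 in the comparison of all libraries. It ranged from 0 to 3 when 1 library was left out. Without PBS replicate 2 these members were Sox21, Sox11 and Sox17, and 30.8% of the 5966 genes with a peak showed the pattern. Without CTX replicate 2 they were Sox10 and Sox17, and 26.2% of the 5741 genes with a peak showed it. At the other alternatives the number of such members was 0. The difference in members with a peak ranged from -1.50 to 0 when 1 library was left out, and that in summed covered length from -2769 to -835 bp.

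The sign of single genes was less stable. Covered length at Sox2 differed by 10.7 bp with all libraries. It differed by -56 bp with peaks of q-value 0.01 or less, -255 bp at 1e-05, -141 bp with 10 kb upstream, -101 bp with equal peak numbers, -108 bp without PBS replicate 2 and -181 bp without CTX replicate 2. The difference turned to 66.7 bp at Sox17 within 2 kb of the TSS, where the calls of most libraries do not lie, to 99.3 bp at Sox7 without PBS replicate 1 and to 40.8 bp at Sox14 without CTX replicate 3. Leaving out 1 library gave -181 to 176 bp at Sox2, -231 to 40.8 bp at Sox14 and -262 to 99.3 bp at Sox7. The cause was not tested. The difference at Sox14 was 0 bp, with no peak left in any library, with 2 kb upstream and within 2 kb of the TSS. The other 154 values for single genes kept their sign, among them all those of the pileup and the 10-kb density, whose log2 differences ranged from -0.52 to -0.16 and from -0.58 to -0.32 when 1 library was left out, a choice of measure and alternatives made for the density after seeing the data.

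Same-numbered libraries did not deviate together (Pearson's r -0.0364, -0.0528 and -0.0357 over 6240 genes), so the numbers were not taken as pairs. With the replicate block the 10-kb density differed by -0.53 at Sox21 and the pileup by -0.45 at Sox10, both in the same direction in 3 of 3 pairs (exact sign-flip p = 0.25, the smallest possible). No test of a single gene could pass 0.05 with or without the block, so no call changed.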
